A study of Schizosaccharomyces pombe with 21 samples.

Results

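Cycloheximide was set against no drug in fission yeast (Schizosaccharomyces pombe) after 2 h without phosphate, by RNA-seq of polyA RNA. The 2h_CHX group was strain AGP72 held for 2 h in ePMGT(-PO4) medium, which lacks phosphate, with 100 µg/ml cycloheximide. The 2h group was the same strain in the same medium for the same time with no drug. Both groups carry the genotype label h- and hold 3 libraries each, so the comparison uses 6 of the 21 libraries, chosen by time, medium and drug alone. Of 6988 genes in the count table, 6392 passed the filter on low counts and were tested. The other groups serve here as context. They are log-phase cells in the rich medium YES (0h) and cells starved for 4 and 8 h with the drug (4h_CHX, 8h_CHX) and without it (4h, 8h), again with 3 libraries each. The labels do not say when the drug was added relative to the medium change, and no mutant or second strain enters the comparison.

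Cycloheximide binds the ribosome and blocks translation elongation. How complete the block was in these cells was not measured here. Phosphate starvation in fission yeast turns on a small regulon of acid phosphatase and phosphate transporter genes, slows growth and ends in quiescence. Maf1 is the conserved repressor of RNA polymerase III, and the study as a whole is concerned with Maf1 and tRNA production in starved cells.

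The 6 libraries held between 22086821 and 32500458 counts. The first principal component of the 6 libraries parted the groups and took 96.1% of the variance. Between 6584 and 6606 genes had counts in the 2h_CHX libraries, against 6499 to 6509 in the 2h libraries. The gene with the most counts was tef103, a gene for elongation factor EF-1 alpha, in each 2h_CHX library and fba1, the gene for the glycolytic enzyme aldolase, in each 2h library. The labels call the 3 libraries of a group biological replicates but do not say whether they came from separate cultures, so p-values measure the spread between these samples. No spike-in was used as far as the labels say. Levels are given as counts scaled to library size (CPM) on TMM-scaled libraries and are relative to all other RNA in the library. Fewer cells of a type and less RNA per cell cannot be told apart in such bulk samples.

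As a check of the h- label, which denotes the M mating type, the M-cell and P-cell genes were read first. The M-factor pheromone genes mfm1, mfm2 and mfm3 had counts in both groups, while mat1-Mc and mat1-Mi had 0 counts in all 21 libraries. The P-cell genes map2, map3 and sxa1 were not at 0. Of these sxa1 had 44327 counts over the 2h_CHX libraries and 42939 over the 2h libraries, beside 326 and 7977 for the M-cell gene mfm2. The gene map2, for the P-factor pheromone, had 4585 counts over the 2h_CHX libraries and 772 over the 2h libraries. The M-cell gene mam1 had 2834 counts over the 2h_CHX libraries and 6562 over the 2h libraries. In the same order mam2 had 235 and 1260, ste6 617 and 2166, and sxa2 1800 and 2180. With counts for genes of both types, the marker genes by themselves did not settle the h- label. What part mating type plays in the results was not tested.

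With cycloheximide 1013 genes were higher (15.8% of those tested) and 862 were lower (13.5%) by edgeR's quasi-likelihood test. A gene counts as higher, lower, risen or fallen here only where it moved 2-fold or more with a p under 0.05 after Benjamini-Hochberg adjustment. Among the genes that were higher, 343 changed at least 4-fold and 145 at least 8-fold, and among the genes that were lower 175 and 50 did. The median log2 fold change over all tested genes was -0.04. Of the called genes, 1009 of the 1013 higher and 860 of the 862 lower had no overlap between the 3 libraries of each group. Lack of overlap was common among genes not called too, since 5569 of the 6392 tested genes (87.1%) had none. After ± stands the standard error (SE) for a log2 fold change and the SD of 3 libraries for a level. Genes named below that fall outside the naming rule are marked as picked later, and were chosen after their values were seen. Stress response, iron and heme uptake, gluconeogenic, tRNA and ribosome biogenesis genes were among those that rose, and glycolytic enzyme, chaperone, uracil-regulated and M-factor genes among those that fell.

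**Figure D1:**
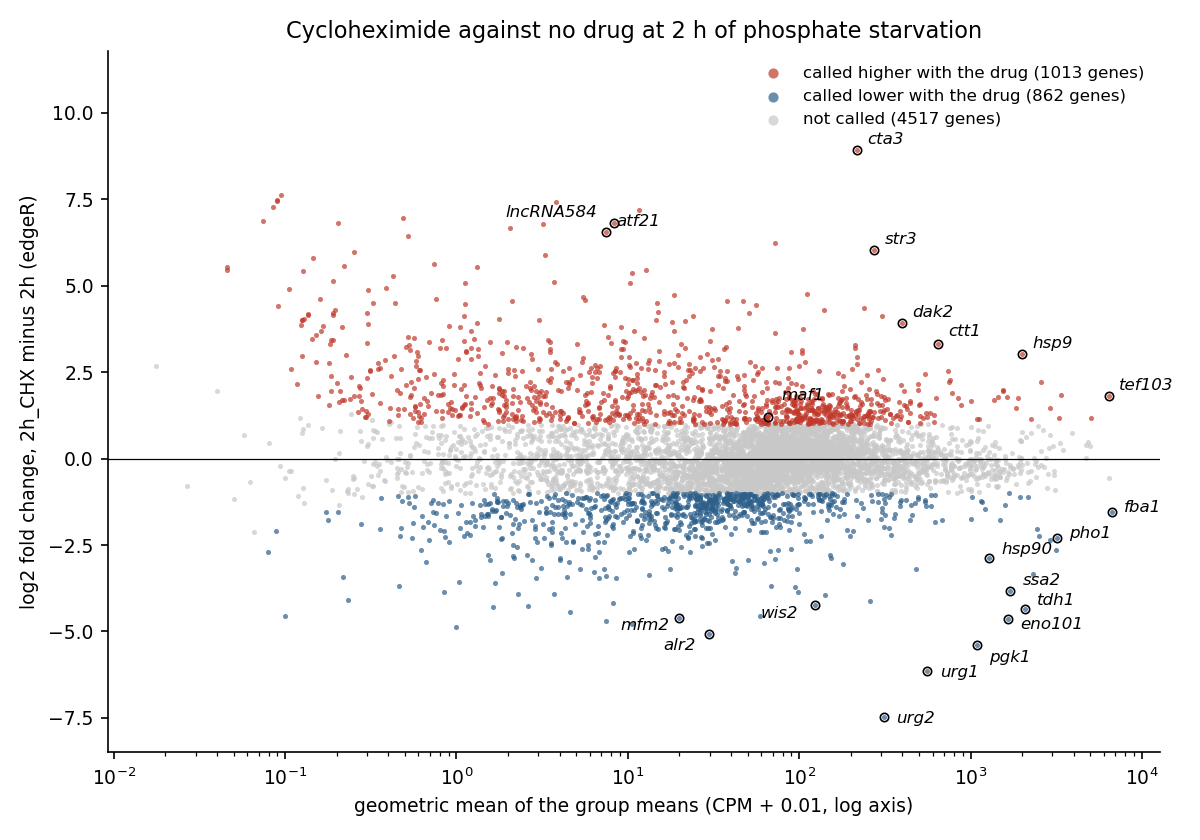
Each point is 1 of the 6392 genes, with its mean level on the horizontal log axis (CPM) and its log2 fold change, 2h_CHX minus 2h, on the vertical axis; red points rose and blue points fell with the drug. The gene cta3 stands at the top with 8.93 ± 0.10, and urg2 at the bottom with -7.47 ± 0.13.

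The highest log2 fold change of all was that of cta3, which encodes a P-type ATPase that exports potassium and is a classical target of the stress MAP kinase pathway. It had 4815, 4962 and 4562 CPM in the 2h_CHX libraries, against 9.83, 10.6 and 8.87 CPM in the 2h libraries. Every library with the drug was far above every library without it, with a log2 fold change of 8.93 ± 0.10 (SE; edgeR, adjusted p = 6.93e-25). In replete cells (0h) it averaged 2.20 ± 0.0246 CPM (SD, n = 3). The transcription factor gene atf21, a relative of atf1 in the Atf-CREB family, had 66.8, 78.4 and 71.1 CPM with the drug, against 1.00, 0.775 and 0.505 CPM without it. The 2 groups again did not overlap, and the log2 fold change was 6.56 ± 0.22. Catalase (ctt1), which breaks down hydrogen peroxide, had 1732, 2278 and 2047 CPM in the 2h_CHX libraries, against 219, 204 and 188 CPM in the 2h libraries. Its log2 fold change was 3.31 ± 0.12 (edgeR, adjusted p = 3.29e-17).

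These genes belong to the core environmental stress response, the set that fission yeast raises under many kinds of stress through the MAP kinase Sty1 and the transcription factor Atf1. Of 29 members tested 14 rose and 2 fell, with a median log2 fold change of 0.94, beside -0.04 over all genes. ddr48, a DNA damage-responsive gene, had 518, 755 and 584 CPM with the drug and 33.8, 36.2 and 24.5 CPM without it (log2 fold change 4.30 ± 0.23). hsp9, for a small heat shock protein, averaged 5720.1 ± 551 CPM in the 2h_CHX libraries and 702 ± 68.3 CPM in the 2h libraries (SD, n = 3 each; log2 3.03 ± 0.12). Of members picked later, the trehalose synthesis genes tps1 (-0.08 ± 0.10) and tpp1 (0.21 ± 0.04) and hsp16, for a small heat shock protein (-0.64 ± 0.26) were not called. The members that fell were plr1, for pyridoxal reductase (-1.99 ± 0.08), and zta1, for a quinone oxidoreductase (-1.83 ± 0.06). As a share of all counts the 29 genes took 2.67 ± 0.229% with the drug and 0.977 ± 0.0497% without it (mean ± SD, n = 3 each).

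The signalling genes of the stress MAP kinase pathway had 10 of 22 higher and 0 lower (median 0.91). atf1, the factor itself, had 657, 680.4 and 685 CPM with the drug, against 212, 224 and 212 CPM without it (log2 1.64 ± 0.06). The 2 groups did not overlap. The genes for the kinase Srk1 (1.74 ± 0.08), the phosphatase Pyp2, which turns off Sty1 (1.70 ± 0.13), and the bZIP factor Atf31 (1.83 ± 0.10) also rose. Picked later, sty1, for the kinase itself (0.66 ± 0.04), and wis1, for its activator (0.34 ± 0.04), were below the 2-fold threshold. Of 26 antioxidant and drug efflux genes 4 were higher and 3 lower (median 0.01), near the 15.8% and 13.5% over all genes. srx1 for sulfiredoxin (2.27 ± 0.11) and bfr1 for a brefeldin A efflux pump (1.67 ± 0.10) rose, while the glutaredoxin genes grx1 (-2.78 ± 0.08) and grx2 (-1.27 ± 0.04) and the thioredoxin gene trx1 (-1.12 ± 0.05) fell.

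**Figure D2:**
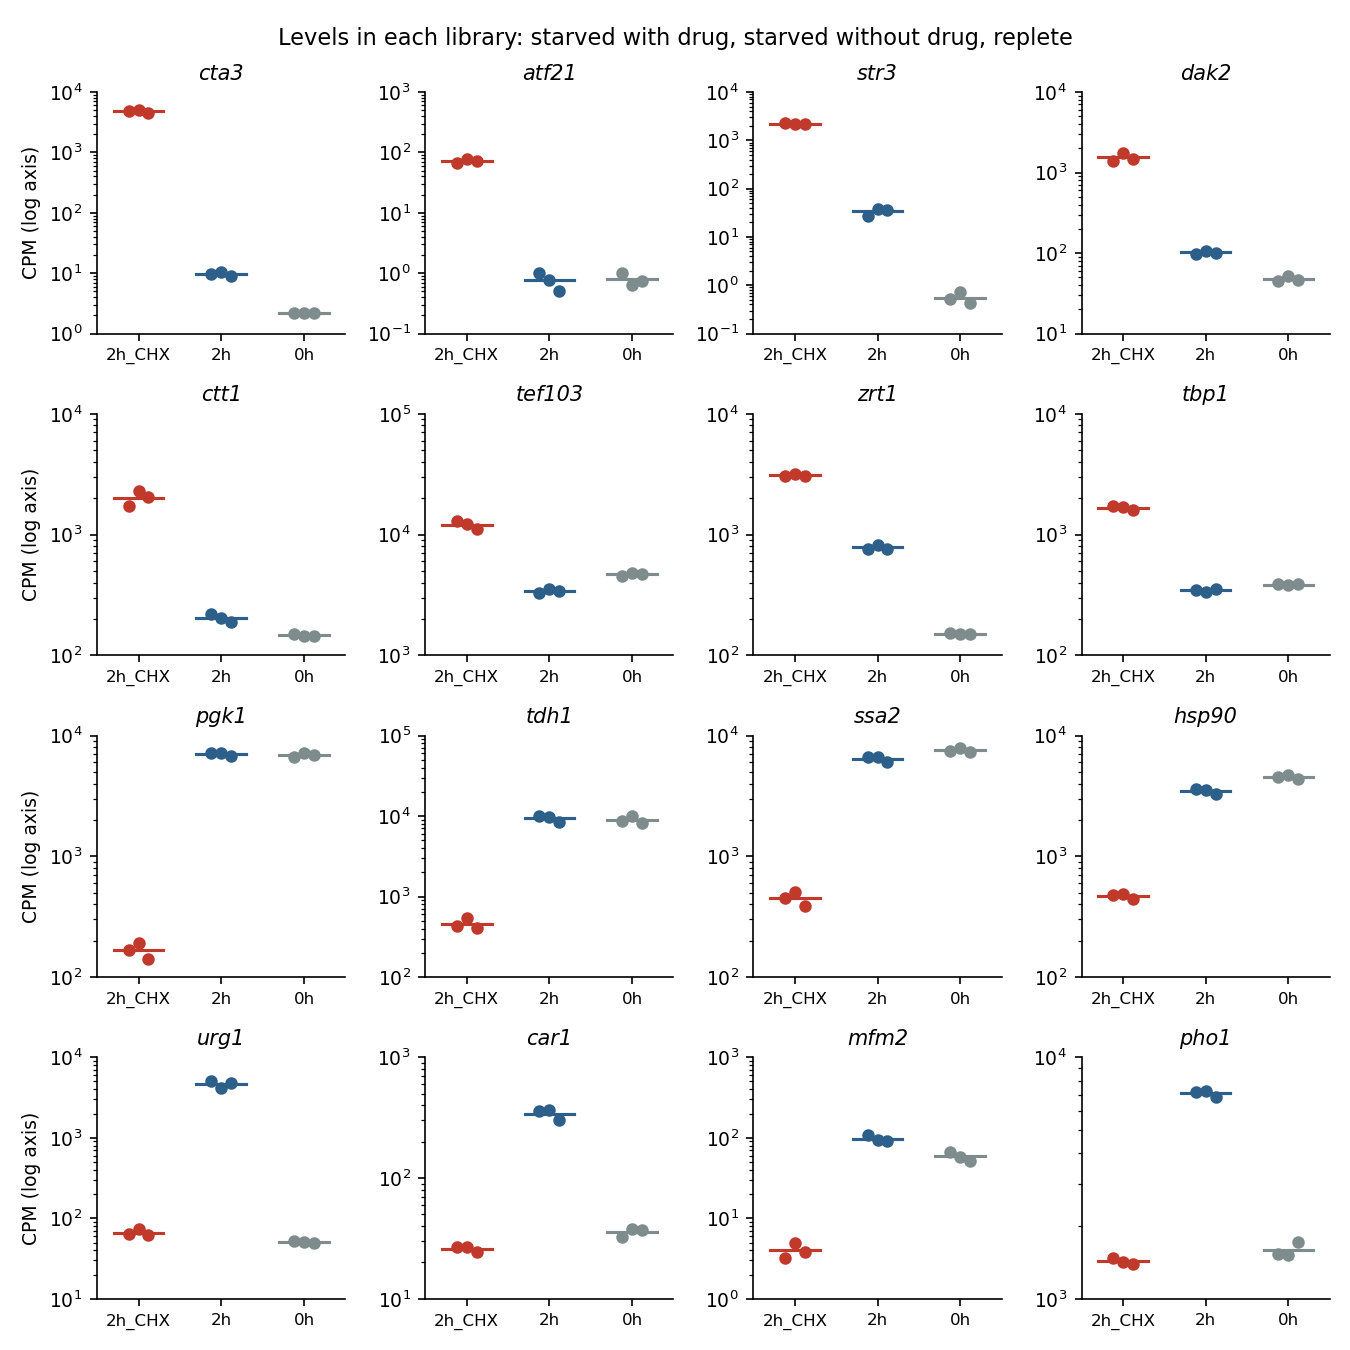
Each panel shows 1 gene, with the CPM of the 3 libraries of 2h_CHX, 2h and 0h as points on a log axis and the group mean as a line. The 2h_CHX points lie above all 2h points for cta3 through tbp1 and below them for pgk1 through pho1, and for urg1, car1 and pho1 they lie near the 0h points.

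Genes for metal uptake also rose. Iron in fission yeast is taken up by a ferric reductase with an oxidase and permease, by siderophores and as heme, and the genes are repressed by Fep1 when iron is plentiful. Of 16 iron and heme acquisition genes 10 rose and 1 fell, with a median of 1.30. The heme transporter gene str3 had 2294, 2216 and 2163 CPM in the 2h_CHX libraries, against 27.6, 38.6 and 35.6 CPM in the 2h libraries. Every drug library was far above every drug-free one, with a log2 fold change of 6.04 ± 0.11 (edgeR, adjusted p = 1.24e-21); at 0h it averaged 0.555 ± 0.153 CPM. shu1, for a heme-binding protein at the cell surface (4.66 ± 0.22), and frp1, for the ferric reductase (3.20 ± 0.11), rose as well. The repressor gene fep1, picked later, was at 0.14 ± 0.05, and sib3, a siderophore synthesis gene, fell (-1.26 ± 0.04).

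Copper and zinc uptake genes gave 4 of 9 higher and 0 lower (median 0.97). The copper transporter subunit genes ctr4 (2.03 ± 0.16) and ctr5 (1.47 ± 0.09) rose, and so did the copper-sensing activator gene cuf1, picked later (1.18 ± 0.04). zrt1, the zinc importer gene, had 3031, 3153 and 3080.4 CPM with the drug, against 765, 817 and 763 CPM without it. The drug libraries were all the higher ones, and the log2 fold change was 1.98 ± 0.06.

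Glycolysis turns glucose into pyruvate, and its enzyme genes were lower with the drug. Of 13 glycolysis genes 9 fell and 2 rose, with a median of -1.84. Together they took 1.33 ± 0.064% of all counts with the drug and 5.79 ± 0.191% without it (mean ± SD, n = 3 each), beside 5.21 ± 0.223% at 0h. pgk1, for phosphoglycerate kinase, had 168, 191 and 142 CPM in the 2h_CHX libraries, against 7230.5, 7112 and 6766 CPM in the 2h libraries. No library with the drug came near any library without it, and the log2 fold change was -5.40 ± 0.14 (edgeR, adjusted p = 3.92e-19). The enolase gene eno101 had 338, 364 and 288 CPM with the drug and 8487, 8526 and 7645 CPM without it (log2 -4.64 ± 0.11). tdh1, for glyceraldehyde-3-phosphate dehydrogenase, had 432, 535 and 411 CPM with the drug and 10096, 9589.9 and 8458 CPM without it (log2 -4.35 ± 0.12). Both members that rose encode further isoforms of these last 2 enzymes. eno102 had 42.3, 66.8 and 55.1 CPM with the drug and 15.7, 13.3 and 11.4 CPM without it (log2 2.02 ± 0.18), and gpd3 had 2631, 2959 and 2439.6 CPM with the drug and 813, 819 and 711 CPM without it (log2 1.78 ± 0.10). Enzyme isoforms can share sequence, and the sources used here do not say how reads that fit both were counted. The 2 members not called were pfk1 for phosphofructokinase (-0.12 ± 0.06) and hxk1 for hexokinase (-0.95 ± 0.03), both picked later.

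The fermentation genes also held isoforms that moved apart. Pyruvate decarboxylase gene pdc101 averaged 1275 ± 57.4 CPM with the drug and 6579 ± 55.7 CPM without it (log2 -2.37 ± 0.06), while pdc201 averaged 136 ± 5.74 CPM with the drug and 19.4 ± 2.19 CPM without it (log2 2.81 ± 0.11). The alcohol dehydrogenase gene adh1 fell by 2.65 on the log2 scale and the aldehyde dehydrogenase gene atd1 rose (1.84 ± 0.06), and in all 5 of 11 fell and 2 rose. Gluconeogenesis and glycerol genes had 9 of 13 higher and 1 lower (median 1.29). dak2, for dihydroxyacetone kinase, had 1401, 1735 and 1475 CPM with the drug, against 98.6, 107 and 101 CPM without it. The 2 groups did not overlap, and the log2 fold change was 3.91 ± 0.12. inv1, for secreted invertase (3.32 ± 0.13), and gld1, for glycerol dehydrogenase (2.21 ± 0.11), rose, whereas fbp1, picked later, the gene for the gluconeogenic fructose bisphosphatase, was at 0.50 ± 0.14 and was not called. Of 8 hexose transporter genes 4 rose and 0 fell, among them ght2 (2.52 ± 0.07) and ght3, annotated as a gluconate symporter (3.23 ± 0.09).

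Of 28 chaperone genes 13 were lower and 2 higher, with a median of -0.68. These proteins fold new polypeptides and are driven by the heat shock factor Hsf1. The Hsp70 gene ssa2 had 454, 502 and 391 CPM in the 2h_CHX libraries, against 6630.2, 6627 and 6025 CPM in the 2h libraries. Each drug library was far below each drug-free one, at a log2 fold change of -3.84 ± 0.12 (edgeR, adjusted p = 3.87e-18). hsp90 had 479, 483 and 443 CPM with the drug, against 3599.6, 3508 and 3299 CPM without it (log2 -2.89 ± 0.07). Its co-chaperone genes sti1 (-1.37 ± 0.06), aha1 (-1.02 ± 0.04) and wos2 (-1.77 ± 0.04), picked later, fell too, and the Hsp40 gene psi1 fell (-2.92 ± 0.12). wis2, a cyclophilin gene outside the list, fell as well (-4.24 ± 0.10). The 2 members that rose were hsp9, above, and the polyubiquitin gene ubi4 (1.72 ± 0.05). Picked later, the ribosome-associated Hsp70 gene sks2 was at 0.38 ± 0.06, the endoplasmic reticulum Hsp70 gene bip1 at -0.03 ± 0.04 and the 8 chaperonin CCT genes at a median of -0.33 with none called.

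The 2 lowest genes were urg2 and urg1 of the uracil-regulated set, named for its induction by uracil. urg2, annotated as a uracil phosphoribosyltransferase, averaged 23.4 ± 1.90 CPM in the 2h_CHX libraries and 4136 ± 419.6 CPM in the 2h libraries (SD, n = 3 each), and 93.3 ± 6.28 CPM at 0h. Its log2 fold change was -7.47 ± 0.13 (edgeR, adjusted p = 4.69e-22). urg1, annotated as a GTP cyclohydrolase, had 63.8, 72.8 and 62.6 CPM with the drug, against 5102, 4176 and 4795 CPM without it, and averaged 51.3 ± 1.23 CPM at 0h. urg3 (-4.12 ± 0.08) and uck2 (-3.93 ± 0.09) fell with them. Of all 26 purine and pyrimidine genes 7 fell and 0 rose. The arginase gene car1, which opens arginine breakdown, had 26.7, 26.9 and 24.5 CPM with the drug, against 356, 364 and 300.4 CPM without it, and 35.7 ± 2.87 CPM at 0h (log2 -3.70 ± 0.09). For urg1 and car1 alike the drug libraries stood close to the replete level while the drug-free libraries were far above it. alr2, annotated as an alanine racemase (-5.07 ± 0.15), and mmf2, for a mitochondrial matrix protein of the YjgF family (-4.69 ± 0.14), fell too.

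Nitrogen-regulated permeases and enzymes went both ways, with 5 of 29 higher and 7 lower, the higher calls being near the 15.8% over all genes. The ammonium transporter gene amt3 had 90.1, 125 and 128 CPM in the 2h_CHX libraries, against 8.26, 8.33 and 8.66 CPM in the 2h libraries (log2 3.76 ± 0.11). The amino acid transporter genes isp5 (-3.20 ± 0.08) and put4 (-3.02 ± 0.08) fell, and can1 for arginine and lysine rose (1.46 ± 0.03). Amino acid biosynthesis genes had 5 of 65 higher and 11 lower, the lower calls being near the 13.5% over all genes. met17 for homocysteine synthase (-2.38 ± 0.06) and gln1 for glutamine synthetase (-1.79 ± 0.05) were among the lower, and leu3 for isopropylmalate synthase (1.54 ± 0.05) among the higher.

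Most pheromone genes of M cells were lower. mfm2, one of the genes for the M-factor, had 3.26, 4.96 and 3.86 CPM with the drug, against 109, 93.5 and 90.9 CPM without it. The highest drug library was far below the lowest drug-free one (log2 -4.61 ± 0.32). mam2, for the P-factor receptor, averaged 2.85 ± 0.353 CPM with the drug and 15.5 ± 3.50 CPM without it (log2 -2.42 ± 0.19), and of 7 M-cell genes 5 fell in all. mfm3 was the exception, with 9.54, 8.70 and 11.7 CPM with the drug and 1.76, 1.28 and 1.23 CPM without it (log2 2.79 ± 0.16). map2, the P-factor gene, had 55.4, 58.3 and 55.1 CPM with the drug and 8.90, 8.83 and 10.7 CPM without it (log2 2.57 ± 0.11). Of the regulators of mating and meiosis, ste11 was at 0.77 ± 0.08 and mei2 at 0.10 ± 0.07, neither called, though the meiotic factor gene mei4 rose (2.33 ± 0.11). In the wider list of 34 sexual differentiation genes 7 rose and 10 fell, with a median of 0.02. Over all genes 15.8% were higher and 13.5% lower.

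Of the classical phosphate regulon, pho1 and tgp1 fell with the drug and pho84 was not called. pho1, for the secreted acid phosphatase, had 1479, 1425 and 1399 CPM in the 2h_CHX libraries, against 7179.9, 7279 and 6859 CPM in the 2h libraries. The drug libraries lay near the replete mean of 1591 ± 115 CPM, and the log2 fold change was -2.31 ± 0.08 (edgeR, adjusted p = 5.04e-17). tgp1, for a glycerophosphodiester transporter, had 200.3, 212 and 194 CPM with the drug and 527, 505 and 457 CPM without it (log2 -1.29 ± 0.06), and averaged 17.4 ± 0.873 CPM at 0h, so its drug libraries were still above the replete ones. pho84, for the phosphate importer, had 2110.4, 1983 and 1923 CPM with the drug, against 2969, 2853 and 2903 CPM without it. Those groups did not overlap either, but the log2 fold change of -0.54 ± 0.07 was short of 2-fold.

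These genes are known to be repressed by transcription of a long noncoding RNA across the promoter of each. prt2, the noncoding RNA that represses pho84, had 219, 236 and 230.3 CPM in the 2h_CHX libraries, against 10.1, 9.22 and 9.45 CPM in the 2h libraries, and 26.1 ± 0.756 CPM at 0h (log2 4.57 ± 0.08). SPNCRNA.1343 had 94.4, 99.4 and 89.7 CPM with the drug and 24.2, 24.4 and 23.7 CPM without it (log2 1.97 ± 0.06). Outside the rule for named genes, and picked after their values were seen, nc-pho1 had 22.1, 26.7 and 29.2 CPM with the drug and 2.08, 2.40 and 2.24 CPM without it, and nc-tgp1 had 126, 134 and 137 CPM with the drug and 23.3, 26.9 and 22.1 CPM without it. In each of these the 3 drug libraries were above the 3 drug-free ones. Counts of a noncoding RNA and of a gene that overlaps it cannot be parted where the strand setting of the counting is unknown. Of the other members, pqr1, for a ubiquitin ligase with the SPX domain that senses inositol pyrophosphates (1.97 ± 0.05), and, picked later, pho7, for the activator of the regulon (1.10 ± 0.04), rose. Over the 19 genes of the list 5 rose and 3 fell, beside 15.8% higher and 13.5% lower over all genes. The lower calls of the list were thus near the share over all genes.

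**Figure D3:**
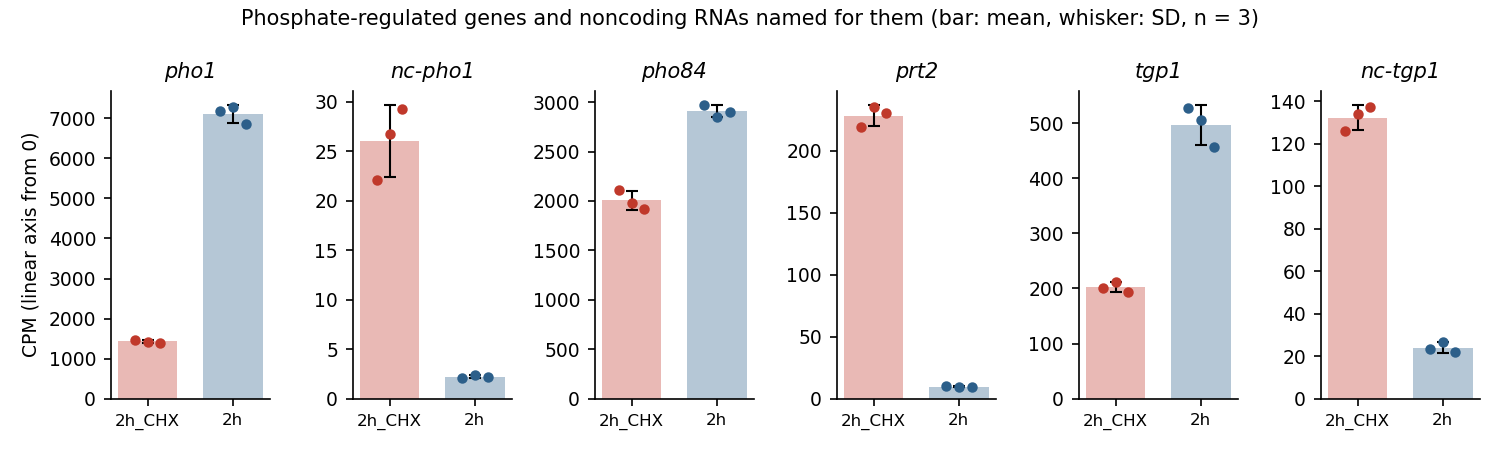
Bars give the mean CPM of 3 libraries in 2h_CHX and 2h on a linear axis from 0, whiskers the SD and points the libraries, for 3 phosphate-regulated genes and the noncoding RNAs named for them. The drug libraries are the lower ones for pho1, pho84 and tgp1 and the higher ones for nc-pho1, prt2 and nc-tgp1.

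RNA polymerase III makes tRNAs, and its repressor gene maf1 had 98.8, 105 and 97.8 CPM in the 2h_CHX libraries, against 44.1, 44.0 and 42.5 CPM in the 2h libraries. The groups did not overlap, with a log2 fold change of 1.21 ± 0.06 (edgeR, adjusted p = 6.66e-15). Of 26 genes of the polymerase III machinery 6 rose and 1 fell, beside 15.8% higher and 13.5% lower over all genes. tbp1, the TATA-binding protein shared by all polymerases (2.27 ± 0.04), rpc1, the largest subunit (1.76 ± 0.04), and brf1, of TFIIIB (1.41 ± 0.04), rose. sfc6, of the factor TFIIIC that binds tRNA genes, averaged 15.1 ± 2.23 CPM with the drug and 60.8 ± 0.789 CPM without it (log2 -1.99 ± 0.07). Of 17 polymerase I genes 3 rose and 0 fell, led by the initiation factor gene rrn3 (1.97 ± 0.04), and the higher calls were near the 15.8% over all genes.

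Counts assigned to tRNA genes were few, in libraries made from polyA RNA, and all 187 together had 1778, 1499 and 1100 counts in the 2h_CHX libraries, against 123, 112 and 103 counts in the 2h libraries. This is 0.00523 ± 0.000246% of all counts with the drug and 0.000401 ± 3.74e-05% without it (mean ± SD, n = 3 each). Of the 38 tRNA genes with enough counts to test, 36 rose and 0 fell, with a median of 4.15. Of the 38, 5 had no counts in the 2h libraries, and with those at the bound set by 3 counts over the group the median was 4.10. These 38 passed the filter through the libraries in which they are high, so their count does not speak for all 187. SPATRNAPHE.01, a phenylalanine tRNA gene, had 5.23, 3.99 and 4.67 CPM with the drug and 0.108, 0 and 0.0361 CPM without it. Copies of a tRNA gene can be identical, and the sources used here do not say how reads were shared among them.

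Small nuclear and nucleolar RNAs, which splice messages and guide rRNA modification, also took a larger share, 0.122 ± 0.00274% with the drug and 0.0337 ± 0.000687% without it. Of 44 tested 19 rose and 0 fell. snoU14, the U14 RNA needed to process the small subunit rRNA, had 309, 311 and 283 CPM in the 2h_CHX libraries, against 37.5, 35.2 and 34.9 CPM in the 2h libraries (log2 3.07 ± 0.05). All noncoding RNA genes together took 2.32 ± 0.088% with the drug and 1.34 ± 0.017% without it, and protein-coding genes 97.5 ± 0.0905% with the drug and 98.6 ± 0.0176% without it. Of 29 rRNA genes tested 15 rose and 1 fell. Only 29 of 49 rRNA genes and 44 of 60 small nuclear and nucleolar RNA genes passed the filter. Members with few counts could pass only through a group in which they are high, so these calls do not speak for all members. As for tRNA, the counts come from libraries made from polyA RNA, and levels of the mature RNAs were not measured. For each of the 5 classes the groups did not overlap and the exact two-sided permutation test gave p = 0.1 (adjusted p = 0.1), the smallest that 3 against 3 libraries allow.

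Ribosome biogenesis factors, which build the subunits in the nucleolus, were mostly higher or not called: 58 of 111 were higher and 2 lower, with a median of 1.07. rlp7 had 1296, 1282 and 1255 CPM with the drug, against 231, 235 and 233 CPM without it and 366 ± 6.79 CPM at 0h. The drug libraries were above both other groups (log2 2.46 ± 0.04). The nucleolar protein gene gar2 (1.95 ± 0.05) and the U3 snoRNP gene sof1 (1.86 ± 0.04) followed, and fap7 (-1.19 ± 0.05) fell, as did dim1 (-1.10 ± 0.05), which the annotation gives as a subunit of the splicing tri-snRNP. Few ribosomal protein genes were called at this time: 1 of 83 large-subunit genes rose and 0 fell (median -0.29), and 0 of 55 small-subunit genes rose and 1 fell (median -0.27). The gene that rose was rpl1603, with 585, 576 and 560.1 CPM with the drug and 103, 107 and 113 CPM without it. The gene that fell was rps1401, with 107, 96.3 and 74.2 CPM with the drug and 397, 361 and 406 CPM without it. Both have paralogs of like sequence, which makes the split of reads uncertain. Translation factor genes gave 2 of 41 higher and 2 lower. tef103 had 12902, 12129 and 11008 CPM with the drug, against 3303, 3522 and 3401 CPM without it (log2 1.82 ± 0.07), and it too has near-identical paralogs. Aminoacyl-tRNA ligase genes gave 0 of 37 higher and 5 lower, among them the mitochondrial lysine ligase gene msk1 (-1.54 ± 0.05). Their lower calls were near the 13.5% over all genes.

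Many noncoding RNA genes rose, both those named as antisense to another gene and the rest: 207 of 667 antisense genes (31.0%) and 168 of 558 others (30.1%) were higher, against 568 of 5056 protein-coding genes (11.2%). Lower calls were 90, 87 and 684. The filter passed 667 of 693 antisense genes, 558 of 834 others and 5056 of 5165 protein-coding genes. Genes with few counts could pass only through a group in which they are high, so the shares of the classes are not fully comparable. SPCC663.10-antisense-1 had 646, 629 and 611 CPM in the 2h_CHX libraries, against 7.64, 8.60 and 8.51 CPM in the 2h libraries. rex3-antisense-1 had 86.6, 93.6 and 105 CPM with the drug, against 3.84, 3.10 and 3.79 CPM without it, while rex3 itself, an exonuclease gene picked later, was at 0.11 ± 0.04. mdl1-antisense-1 rose (4.24 ± 0.11) and mdl1, picked later, was at -0.83 ± 0.04. The annotation gives rex3-antisense-1 and mdl1-antisense-1 as predicted antisense RNAs that may be alternative untranslated regions. Since the strand setting of the counting is unknown, counts of an antisense gene and of its opposite gene may mix. Of 157 antisense genes that rose and whose opposite gene was tested, 21 had that gene lower, 20 had it higher and 116 had it not called. Of 66 that fell, 15 had it lower and 8 higher, and of 265 not called, 50 had it lower and 25 higher. lncRNA584, annotated as a meiosis-specific RNA, had 69.8, 95.0 and 98.4 CPM with the drug, against 0.897, 0.93 and 0.505 CPM without it (log2 6.81 ± 0.18).

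Tf2 retrotransposons were higher in all 5 of the 13 copies that could be tested (median 2.56). Copies with few counts could pass the filter only through a group in which they are high, so these 5 do not speak for all 13. Tf2-11 had 57.7, 75.9 and 66.4 CPM with the drug, against 4.88, 4.65 and 5.99 CPM without it, so that each drug library was above each drug-free one (log2 3.68 ± 0.11). The copies are near-identical, and counts cannot be tied to 1 copy. The spore wall gene isp3 had 502, 659 and 566 CPM with the drug, against 20.9, 22.3 and 20.9 CPM without it (log2 4.75 ± 0.11), and wwm3, for a WW domain protein, rose too (4.57 ± 0.16). mlo3, for an RNA-binding protein of messenger RNA export, had 26.3, 25.9 and 25.3 CPM with the drug, against 374, 370.2 and 369.8 CPM without it (log2 -3.84 ± 0.06).

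Nuclear genes for mitochondrial proteins are read beside the 15.8% of all genes that were higher and the 13.5% that were lower. Of 58 respiratory chain and ATP synthase genes 12 fell and 0 rose (median -0.68), and of 76 mitochondrial ribosomal protein genes 8 fell and 2 rose (median -0.39), so that the lower calls of the second list were no more frequent than over all genes. The assembly factor gene pet117 (-2.03 ± 0.07) was lowest in the first list and mrp10 (-2.04 ± 0.05) in the second. Autophagy genes gave 5 of 30 higher and 1 lower, with atg101 (1.66 ± 0.08) and atg3 (1.45 ± 0.05) among the higher, whose share was near that over all genes. TOR pathway genes gave 4 of 33 higher and 0 lower, led by the kinase gene ppk31 (3.00 ± 0.10), and here too the higher calls were no more frequent than over all genes. Proteasome genes gave 1 of 46 higher and 1 lower (median -0.32).

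Calls among mitosis and septation genes in either direction, and lower calls among targets of the G1/S factor MBF, were near the shares over all genes, 15.8% higher and 13.5% lower. MBF targets gave 0 of 29 higher and 4 lower, among them dut1, for the enzyme that destroys dUTP (-2.96 ± 0.07), and mik1, for a kinase that holds back mitosis (-1.94 ± 0.09). Of 36 mitosis and septation genes 5 rose and 6 fell. wee1, for another such kinase, rose (1.15 ± 0.04). eng1, for the glucanase that splits the septum, averaged 62.4 ± 5.24 CPM with the drug and 513 ± 25.6 CPM without it (log2 -3.04 ± 0.06). Of 12 histone genes hht2 rose (1.77 ± 0.06) and hhf1 (-1.28 ± 0.06) and the centromeric cnp1 (-1.53 ± 0.08) fell. In sterol synthesis erg1 for squalene monooxygenase rose (2.22 ± 0.05) and the heme synthesis gene hem13 fell (-2.24 ± 0.03), with 3 of 32 higher and 2 lower. Of 44 RNA decay genes 3 rose and 2 fell: csx1, an RNA-binding protein gene of the stress response (1.39 ± 0.05), the poly(A) polymerase gene cid14 (1.25 ± 0.03) and the exonuclease gene dhp1 (1.09 ± 0.03) were higher, and erh1 (-1.76 ± 0.07) and lsm1 (-1.33 ± 0.03) lower. Thiamine-repressed genes gave 0 of 13 higher and 3 lower, 1 of which was the arginase gene car1, and cation transport genes 2 of 18 higher and 1 lower, which was alr2. The longevity gene ecl1 rose (1.38 ± 0.14) while ecl3 fell (-3.45 ± 0.18).

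**Figure D4:**
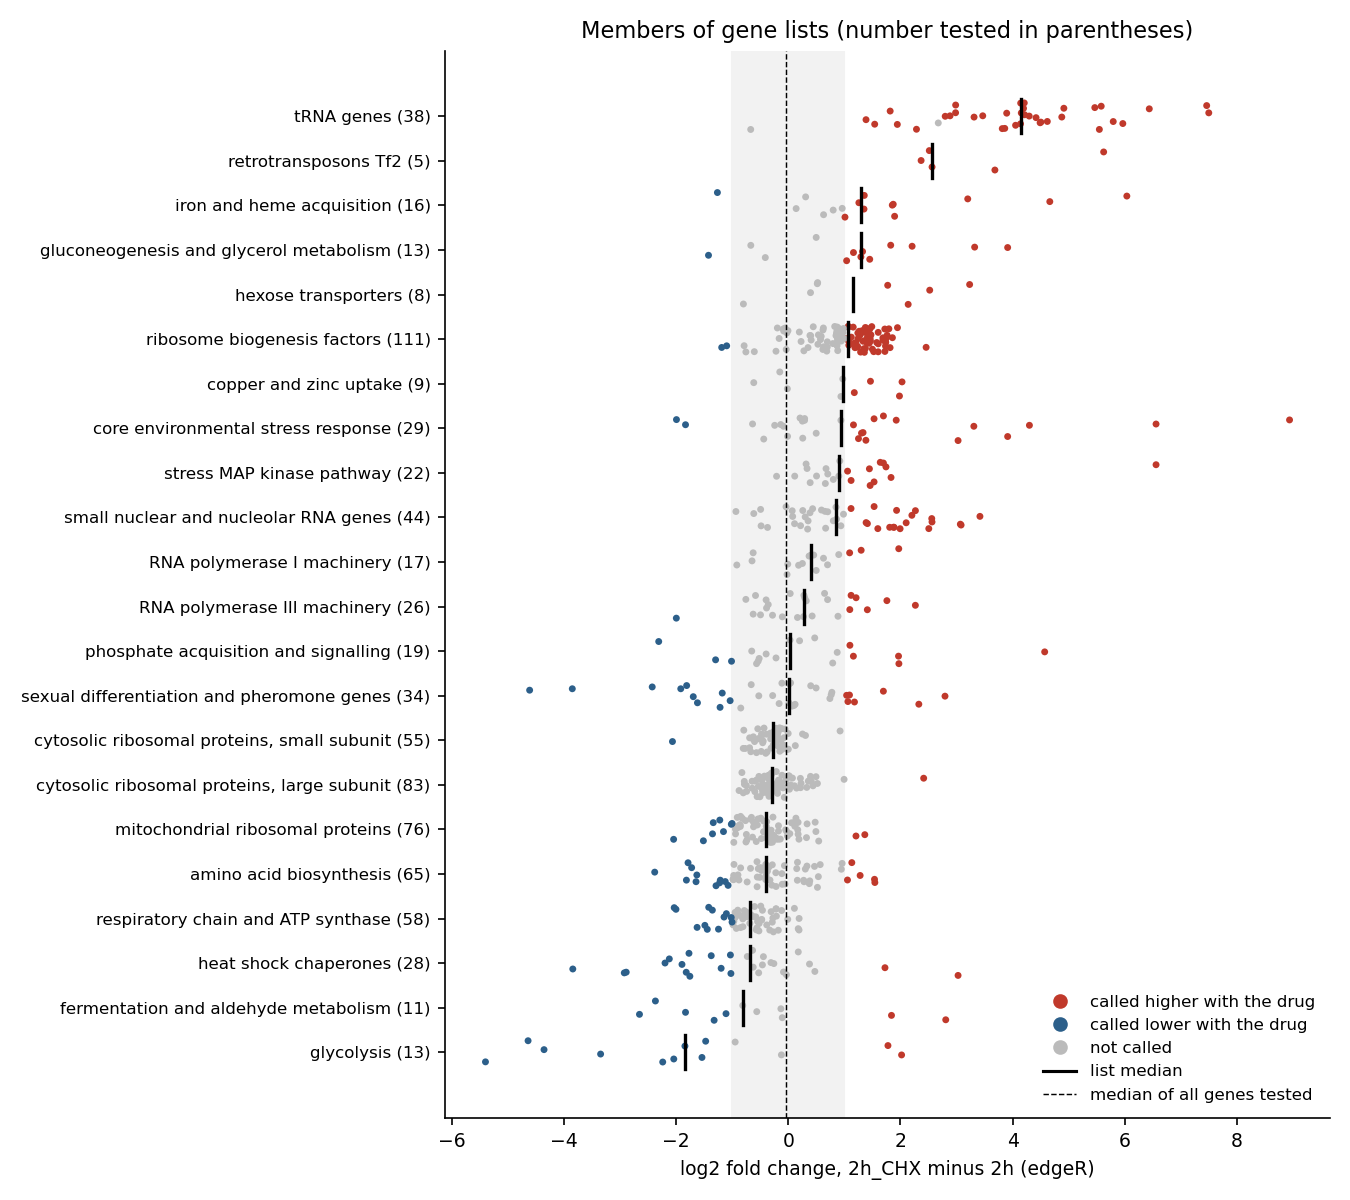
Each point is a tested member of a gene list at its log2 fold change, 2h_CHX minus 2h, in red where it rose, blue where it fell and grey where it was not called; black ticks are list medians, the dashed line is the median of all genes and the shaded band is under 2-fold. The medians run from 4.15 for tRNA genes to -1.84 for glycolysis.

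The drug effect at 2 h was then tested against the drug effect at 4 h in 1 model, as the difference of the 2 log2 fold changes. By edgeR's quasi-likelihood test 842 genes had a positive difference (13.2%) and 622 a negative one (9.73%). Stress genes stood on the positive side. At 4 h ctt1 averaged 942 ± 142 CPM with the drug and 1447 ± 95.0 CPM without it, which is no called change, and the difference was 3.93 ± 0.16. ddr48 was at 666 ± 212 CPM with the drug and 1437 ± 257 CPM without it at 4 h (difference 5.41 ± 0.30). At 2 h it had averaged 619 ± 123 CPM with the drug and 31.5 ± 6.18 CPM without it, so mainly its drug-free level differed between the times. For ctt1 the drug-free libraries were likewise far higher at 4 h than at 2 h, and those with the drug were lower. Of the 29 core stress genes 19 had a positive difference and 0 a negative one. lsd90 (4.88 ± 0.26), wwm3 (4.46 ± 0.21) and cds1-antisense-1 (4.73 ± 0.21) were the other leading ones.

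Ribosomal protein genes stood on the negative side. rpp203, for an acidic ribosomal protein, had 366, 336 and 303 CPM with the drug and 348, 372 and 367 CPM without it at 2 h, which is no called change. At 4 h it averaged 357 ± 4.81 CPM with the drug and 24.1 ± 3.25 CPM without it, and the difference of the drug effects was -4.00 ± 0.10 (edgeR, adjusted p = 3.14e-18). Its libraries with the drug were in the same range at both times, and those without it were far lower at 4 h. rpl3002 (-3.56 ± 0.09), rps1402 (-3.43 ± 0.11) and rpl2702 (-3.39 ± 0.10) were likewise not called at 2 h. The noncoding pfd1-antisense-1 (-4.10 ± 0.24) had risen at 2 h already. In all 81 of 83 large-subunit and 55 of 55 small-subunit genes had a negative difference. The large-subunit genes took 8.64 ± 0.379% of counts with the drug and 9.76 ± 0.241% without it at 2 h, and 9.28 ± 0.0839% with the drug and 2.54 ± 0.149% without it at 4 h. Of the 111 ribosome biogenesis factors, 58 of which were higher with the drug at 2 h, 61 had a negative difference.

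Against 8 h, 1240 genes had a positive difference (19.4%) and 807 a negative one (12.6%). The uracil-regulated genes urg1 and urg2 were among the lowest. urg1 averaged 5254 ± 675 CPM with the drug and 6327 ± 468 CPM without it at 8 h, which is no called change (difference -5.87 ± 0.15), and at 4 h it averaged 131 ± 20.2 CPM with the drug and 5248 ± 84.5 CPM without it. urg2 was not called at 8 h either (difference -7.08 ± 0.15). isp5 was higher with the drug at 8 h, with 1068 ± 111 CPM with the drug and 60.7 ± 3.60 CPM without it at 8 h (difference -7.33 ± 0.11). mfm3 had the highest difference of the named genes (8.63 ± 0.21), and at 8 h it had 1.02 ± 0.0324 CPM with the drug and 58.6 ± 5.66 CPM without it. The noncoding genes meu3 (7.41 ± 0.38) and ubp16-antisense-1 (7.43 ± 0.25) and hry1, for an HHE domain protein (6.28 ± 0.41) were also among the highest. maf1 had a positive difference against both times, 1.36 ± 0.08 and 1.68 ± 0.08: it averaged 92.2 ± 5.28 CPM with the drug and 103 ± 3.75 CPM without it at 4 h, and 80.3 ± 7.16 CPM with the drug and 111 ± 5.88 CPM without it at 8 h. The effect on cta3 did not differ by 2-fold between times (0.64 ± 0.12 and 0.24 ± 0.13).

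**Figure D5:**
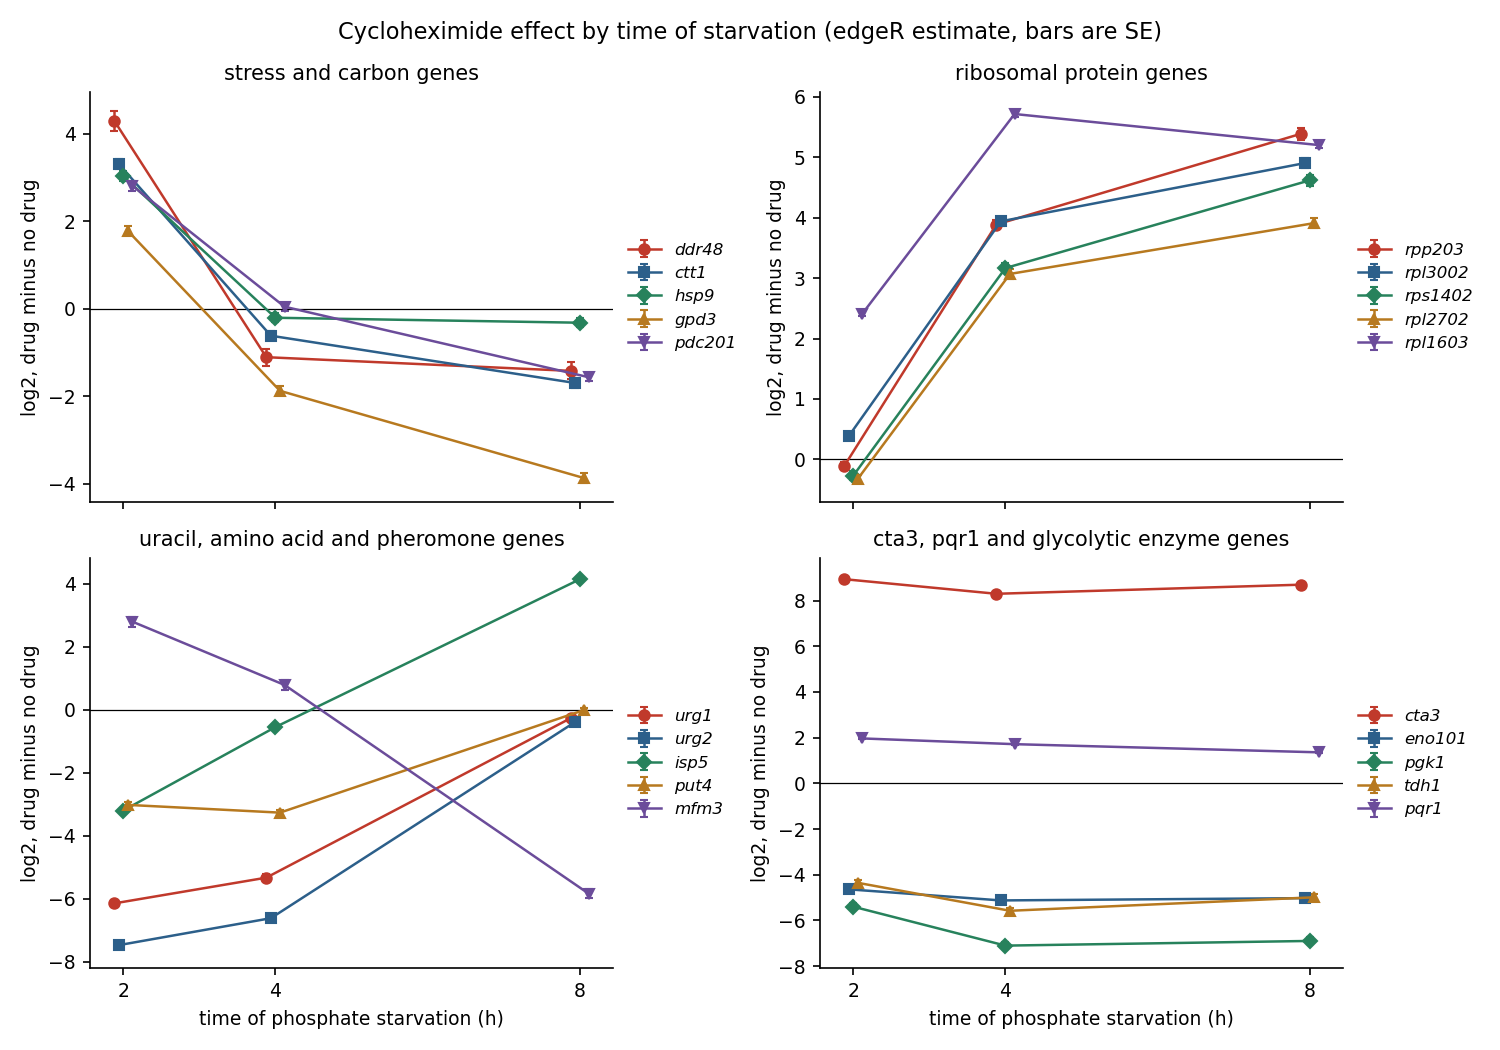
Lines join the log2 drug effect (drug minus no drug, edgeR estimate with SE) of single genes at 2, 4 and 8 h of starvation. The genes of the first panel, the glycolysis gene gpd3 among them, start above 0 and end below it. Of 5 ribosomal protein genes, 4 start near 0 and are above 0 at 4 and 8 h. urg1 and urg2 end near 0, and cta3, eno101, pgk1 and tdh1 keep their sign.

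The drug effect at 2 h was also set beside 4h minus 0h, which shares no library with it. That contrast holds the change from the rich medium YES to ePMGT(-PO4) as well as the time without phosphate, and these cannot be told apart. In that contrast 906 genes were higher (14.2%) and 889 lower (13.9%). Of the 906 higher at 4 h of starvation, 181 (20%) were lower with the drug at 2 h, which is 21% of all genes lower with the drug, and 254 (28%) were higher, which is 25.1% of all genes higher with it. Among the 181 were pho1, with 14570.5 ± 303 CPM in the 4h libraries and 1591 ± 115 CPM in those of 0h, urg1 and mfm2, and among the 254 were ctt1 and dak2. Of the 889 lower at 4 h, 229 (25.8%) were higher with the drug at 2 h and 62 (6.97%) lower, which are 22.6% and 7.19% of the genes so called with it. Ribosome biogenesis genes such as rlp7 were among the 229, and 99 of 111 of them were lower at 4 h of starvation and 58 higher with the drug at 2 h.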

How the data were processed

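PolyA RNA of 21 libraries was sequenced, and the whole-number counts that the authors deposited, gene by gene, were used unaltered. The submitters' processing notes name the aligner HISAT2 2.1.0, the read counter HTSeq 0.10.0 and the genome build ASM294v2. The sources used here do not say whether counting used strand. The authors' deposited comparison tables, with log2 fold changes against 0h, gave gene symbols and products and no value.

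From the counts, genes were filtered with filterByExpr, scaled by TMM and fitted in edgeR 4.0.16 (R 4.3.3) with 1 coefficient per group over all 21 libraries, which share 1 estimate of the spread. Calls need a Benjamini-Hochberg adjusted p below 0.05, over 6392 genes, and at least a 2-fold change. Differences of drug effects are contrasts of the same fit. Tested on simulated counts for 2h_CHX against 2h, 50 of 50 genes changed 2.5-fold, 4-fold and 8-fold were each called, and 0 of 6192 unchanged genes. Of 50 genes changed 1.5-fold 0 were called. The changed genes were drawn from those with more than 50 expected counts in the smallest library, so the check does not speak for genes with fewer counts.

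Named were the 12 highest and 12 lowest called genes that had a symbol, averaged 10 CPM or more in the higher group and did not overlap; up to 3 called members per list and direction; the 5 highest and 5 lowest differences of drug effects; and 16 genes whatever their values. The members and lists were chosen with earlier results of these data known. Some list members do not carry the list's function, such as alr2 among cation genes and car1 among thiamine genes. Alternatives were RLE and total-count scaling, no filter and a stricter one, DESeq2 1.42.0, the compared groups alone, a replicate block, leaving out each library, and adjusted p alone. No sequence is shown, since the files use a build for which no sequence was given.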

Additional observations from a re-analysis of the deposited data

Results flagged for a closer look

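The drug effect at 2 h differed from that at 4 h in 842 genes with a positive difference and 622 with a negative one, tested as a difference of log2 fold changes in edgeR's quasi-likelihood fit. Against 8 h there were 1240 positive and 807 negative differences. The comparisons share the 2h_CHX and 2h libraries.

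Against 4 h, ddr48 (5.41), lsd90 (4.88), cds1-antisense-1 (4.73), wwm3 (4.46) and ctt1 (3.93) had the highest differences among the named genes. The stress genes ctt1 and ddr48 rose with the drug at 2 h, and at 4 h ddr48 was lower with it than without it. The drug-free libraries of both were far higher at 4 h than at 2 h, while those of ddr48 with the drug were in the same range at both times. The lowest were pfd1-antisense-1 (-4.10) and the ribosomal protein genes rpp203 (-4.00), rpl3002 (-3.56), rps1402 (-3.43) and rpl2702 (-3.39). These ribosomal protein genes were not called at 2 h and rose with the drug at 4 h, while pfd1-antisense-1 had risen at 2 h already.

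Against 8 h, the highest were the M-factor gene mfm3 (8.63), ubp16-antisense-1 (7.43), meu3 (7.41), hry1 (6.28) and cds1-antisense-1 (6.18). The lowest were the amino acid transporter gene isp5 (-7.33), the uracil-regulated genes urg2 (-7.08) and urg1 (-5.87), pfd1-antisense-1 (-5.57) and rpp203 (-5.50).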

How the results depend on the processing

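With no fold minimum the calls were 2653 higher and 2827 lower with the drug at 2 h, 2279 positive and 2480 negative differences against 4 h, and 2518 and 2708 against 8 h. The overlaps with 4 h of starvation were then 1202 and 1178 genes. All other counts stayed within 1.5 times the reported ones: a stricter filter gave 769 higher and 721 lower, RLE scaling 1068 and 808, DESeq2 1064 and 808, and total-count scaling 998 positive and 508 negative differences against 4 h. Leaving out each library in turn gave 1009 to 1037 higher and 854 to 880 lower, 814 to 874 positive and 606 to 665 negative differences against 4 h, 1217 to 1266 and 781 to 835 against 8 h, and overlaps of 176 to 186 and 219 to 235. Among named genes 27 values lost the call, of tef5, pho4, atg1803, pam1, dom34 and dsc5, and 0 reversed. Same-numbered libraries were not seen to deviate together (r = -0.20, 0.03 and -0.04), beside -0.17 to 0.17 for differently numbered ones. So few libraries cannot exclude a pairing by number. A fit with the replicate number as a block gave 1014 higher and 862 lower, differences of 845 and 621 against 4 h and of 1242 and 809 against 8 h, and overlaps of 181 and 230. Depth limits the tRNA genes, with 257 counts in the 2h libraries over the 38 tested.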
